A study of Mus musculus with 6 samples.

Results

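The BCL2 family decides whether a cell keeps or opens its outer mitochondrial membrane, the step that commits it to apoptosis. Described here are 10 of its genes, chosen by symbol in the deposited gene count table, of 55573 genes in all. They were 5 BH3-only genes (Bbc3, Pmaip1, Bcl2l11, Bid and Bad), 2 effector genes (Bax and Bak1) and 3 survival genes (Mcl1, Bcl2 and Bcl2l1). BH3-only proteins sense stress and bind the survival proteins, which otherwise hold the effectors in check, and freed effectors form pores in the membrane. In the platelet lineage, the protein of Bcl2l1 (BCL-XL) is known to set the lifespan of platelets, and megakaryocytes are known to rely on MCL1 together with BCL-XL.

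RNA-seq was run on 3 Abcc4-/- and 3 wild-type (WT) mouse samples whose labelled cell type is the megakaryocyte, from which platelets are shed. Abcc4 encodes a membrane pump that exports cyclic nucleotides and thiopurine drugs. The sample titles carry the letters BM, not spelled out there, and CD41, an integrin of the platelet lineage. No treatment, age, strain or cell purification step is given in the sources used here, nor which part of Abcc4 the allele removes. Whether each sample is a different mouse is not stated, so the p-values reflect the variation among these 6 samples, and that variation may be technical.

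The libraries held 67009967 to 99294510 counts in Abcc4-/- and 50440283 to 55123551 in WT, so depth differed with genotype. Each of the 10 genes had at least 533 counts in every library and passed the filter on low counts. Abcc4 itself had 60.1, 60.6 and 62.3 CPM in Abcc4-/- and 74.2, 71.8 and 75.7 CPM in WT. CPM is the count scaled to the library's normalized total. Abcc4 was thus 1.21-fold lower (edgeR, adjusted p = 0.0026), and since the deleted part is not given, the gene total does not check the labels. All 13 megakaryocyte markers were detected. In edgeR at an adjusted p of 0.05, 9 of them fell and 1 rose in Abcc4-/-. Over all 16493 genes tested 8.68% fell and 8.61% rose. The 13 markers summed to 200 to 240 CPM in Abcc4-/- and 289 to 348 CPM in WT. Over the same libraries 12 neutrophil markers, of which 9 rose and 1 fell, summed to 40354 to 42869 CPM in Abcc4-/- and 22900 to 29695 CPM in WT. Monocyte and macrophage markers (10 genes) came to 2532 to 2858 CPM in Abcc4-/- and 2651 to 2986 CPM in WT, B cell markers (10) to 984 to 1080 CPM in Abcc4-/- and 505 to 725 CPM in WT, and T and NK cell markers (10) to 52.5 to 73.5 CPM in Abcc4-/- and 30.3 to 40.6 CPM in WT. Erythroid markers (9) summed to 552 to 798 CPM in Abcc4-/- and 705 to 768 CPM in WT, mast cell and basophil markers (7) to 1892 to 2308 CPM in Abcc4-/- and 2253 to 2752 CPM in WT, and eosinophil markers (8) to 447 to 661 CPM in Abcc4-/- and 865 to 926 CPM in WT. By the same test 7 B cell, 8 T and NK cell and 2 erythroid markers rose and 0 of these fell. Of the monocyte and macrophage, mast cell and basophil (6 tested) and eosinophil markers, 2, 2 and 4 fell and 0 rose. None of the markers of these cell types was at 0 counts over all 6 libraries. The part of this cell mixture in the results below was not tested.

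Of the BH3-only genes 2 of 5 were lower in Abcc4-/-, neither effector gene was called, and of the survival genes 2 were lower and 1 was higher. Of the 10 genes, 5 passed an adjusted p of 0.05 in edgeR's quasi-likelihood test. Bbc3, Pmaip1, Mcl1 and Bcl2 fell and Bcl2l1 rose. Over all 16493 genes tested 17.3% passed, 8.68% lower and 8.61% higher. The median absolute log2 fold change was 0.15 over the 10 genes and 0.13 over all genes tested, and the signed medians were -0.05 and 0.00091. On the deposited TPM, a level scaled for transcript length and library total, the balance over all genes differed: limma on log2(TPM + 1) called 599 higher and 1512 lower, against 1420 higher and 1432 lower on counts. The median over all genes was -0.06 on that scale.

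**Figure D1:**
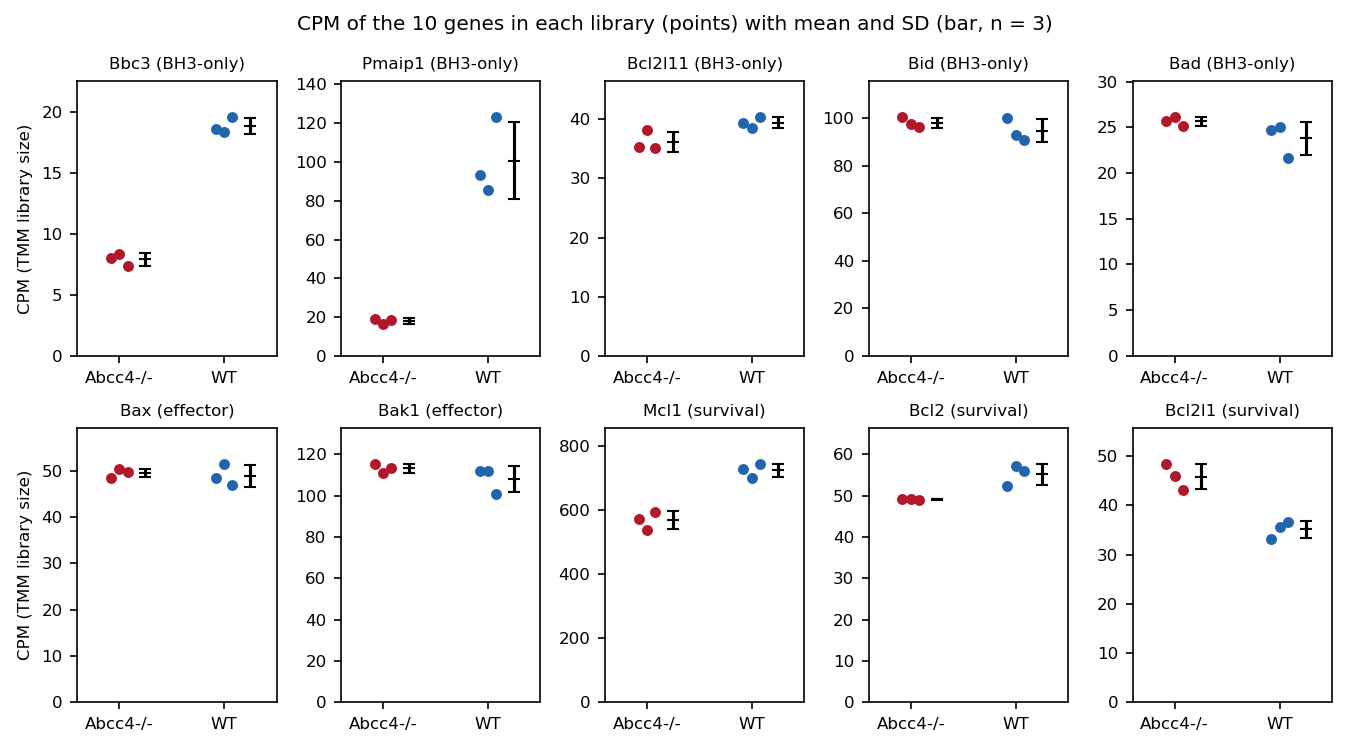
CPM of each of the 10 genes in the 3 Abcc4-/- libraries (red) and the 3 WT libraries (blue), with the mean and SD of each genotype as a black bar. Bbc3 and Pmaip1 lie far below WT in all 3 Abcc4-/- libraries, Mcl1 and Bcl2 lie below and Bcl2l1 above, and Bax, Bak1 and Bid overlap.

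The upstream 250 bases of 4 of the genes are shown because they differ in direction: Bbc3 and Mcl1 were lower, Bcl2l1 was higher, and Bcl2l11 changed on the TPM scale. The sequences are from RefSeq on GRCm38.p6 and end just before the most upstream RefSeq transcript start, 5′ to 3′ on the strand of the gene. Bbc3 is at chr7:16309333-16309582 (plus strand), Bcl2l11 at chr2:128125788-128126037 (plus), Mcl1 at chr3:95658471-95658720 (plus) and Bcl2l1 at chr2:152831729-152831978 (minus). Capitals mark any match on either strand to the 7 motifs described after them.
Bbc3: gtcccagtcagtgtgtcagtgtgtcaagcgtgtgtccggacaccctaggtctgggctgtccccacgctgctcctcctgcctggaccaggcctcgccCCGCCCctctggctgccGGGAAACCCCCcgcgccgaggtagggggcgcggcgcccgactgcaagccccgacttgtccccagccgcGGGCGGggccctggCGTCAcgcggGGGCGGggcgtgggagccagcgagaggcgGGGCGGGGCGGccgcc
Bcl2l11: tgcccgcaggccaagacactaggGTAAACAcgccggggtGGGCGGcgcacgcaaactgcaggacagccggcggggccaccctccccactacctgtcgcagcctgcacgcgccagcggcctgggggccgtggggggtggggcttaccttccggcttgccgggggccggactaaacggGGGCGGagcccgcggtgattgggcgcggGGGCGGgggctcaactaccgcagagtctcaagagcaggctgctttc
Mcl1: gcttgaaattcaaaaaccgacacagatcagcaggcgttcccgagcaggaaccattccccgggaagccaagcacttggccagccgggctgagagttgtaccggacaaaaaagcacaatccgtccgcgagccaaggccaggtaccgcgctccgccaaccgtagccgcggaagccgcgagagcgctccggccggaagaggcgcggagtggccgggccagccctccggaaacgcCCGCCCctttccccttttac
Bcl2l1: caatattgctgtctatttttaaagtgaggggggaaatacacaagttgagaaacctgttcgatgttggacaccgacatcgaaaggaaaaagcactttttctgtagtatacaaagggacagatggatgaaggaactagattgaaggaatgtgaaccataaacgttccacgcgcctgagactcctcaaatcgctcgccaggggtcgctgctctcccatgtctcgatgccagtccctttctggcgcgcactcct

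The motifs were the cyclic AMP response element TGACGTCA, its core TGACG (which lies within it), the AP-1 site TGANTCA, the FOXO site TGTTTAC, the GC box GGGCGG, and by name the serum response CArG box and the NF-kB site. The search covered 15 RefSeq start windows of 9 of the 10 genes, and Pmaip1 was not searched. Of these 15 windows, 10 held a GC box, against 32.7% of all 32851 windows of this length, and 13 had a GC content above the median of all windows, 52.4%. By gene, 7 of the 9 held a GC box in any window. Windows of the same gene are not independent, and some of Bbc3 overlap. The GC box holds only G and C, and the windows compared were not matched for GC content. The Bbc3 window had 76.4% GC and 5 GC boxes, whereas the Bcl2l1 window had 47.6% GC and no GC box, and its other start windows held none either. The core TGACG occurred in 1 window each of Bbc3 and Bcl2, against 17.8% of all windows. No window of the 9 genes matched the full cyclic AMP element, AP-1 or the CArG box, which 1.55%, 6.75% and 1.47% of all windows hold. The FOXO site occurred in 1 window each of Bbc3 and Bcl2l11 (3.17% of all windows), and the NF-kB site in 1 window each of Bbc3, where both matches overlap, and Bcl2l1 (3.90%). These are letter matches and not measured binding.

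Pmaip1 encodes NOXA, a BH3-only protein that chiefly binds MCL1 and is induced by p53 and by the integrated stress response. Its level was 18.95, 16.22 and 18.55 CPM in the Abcc4-/- libraries, against 93.4, 85.8 and 123 CPM in the WT libraries. Every Abcc4-/- library lay far below every WT library, and WT replicate 3 was the highest. The gene (ENSMUSG00000024521.8, chromosome 18, positions 66458533 to 66465565, plus strand of GRCm38) was 5.63-fold lower, with a log2 fold change of -2.49 (SE 0.15; edgeR, adjusted p = 0.00028). This change was larger in size than that of 99.7% of all genes tested. In samples of mixed cells, fewer cells that carry a transcript and less of it per cell cannot be told apart, here and for each gene below.

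Bbc3 encodes PUMA, a BH3-only protein that binds all the main survival proteins and is a p53 and FOXO target. It stood at 8.04, 8.37 and 7.33 CPM in Abcc4-/- and at 18.58, 18.33 and 19.55 CPM in WT. The spread within each genotype was small beside the gap between them. Bbc3 (ENSMUSG00000002083.13, chromosome 7, positions 16308393 to 16318205, plus strand) was 2.38-fold lower (log2 fold change -1.25, SE 0.07; edgeR, adjusted p = 2.3e-06). By its p-value it ranked at 8 of all genes tested.

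The other BH3-only genes were not called on counts. Bid, which caspase-8 cleaves to link death receptors to mitochondria, had 100.3, 97.3 and 96.0 CPM in Abcc4-/- and 100.2, 93.0 and 90.9 CPM in WT, and the groups overlapped. Its log2 fold change was 0.05, with a 95% interval of -0.07 to 0.16 (edgeR, adjusted p = 0.588). Bad, which is held inactive by phosphorylation and 14-3-3 proteins, had 25.7, 26.1 and 25.1 CPM in Abcc4-/- and 24.67, 24.99 and 21.68 CPM in WT. Its groups did not overlap, but the gap was narrow and the log2 fold change of 0.11 (-0.03 to 0.25) was not called (edgeR, adjusted p = 0.277). Groups that do not overlap were seen in 7 of the 10 genes, against 36.8% of all genes tested.

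Bcl2l11 (ENSMUSG00000027381.16), the gene of the BH3-only protein BIM, was little different in counts and clearly lower in TPM. In counts it stood at 35.3, 38.1 and 35.1 CPM in Abcc4-/- and 39.4, 38.6 and 40.3 CPM in WT. The groups were close without overlapping, and the log2 fold change of -0.12 (-0.24 to -0.0069) was not called (edgeR, adjusted p = 0.139, unadjusted p = 0.0398). In TPM it had 11.4, 12.2 and 11.7 in Abcc4-/- and 19.09, 16.67 and 18.55 in WT, the Abcc4-/- mean being 65.2% of the WT mean. On log2(TPM + 1) the log2 fold change was -0.58 (limma, adjusted p = 0.0024), and it was -0.49 with each library centred on its median (limma, adjusted p = 0.003).

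The gap between the scales can be read as a length. A gene's count divided by its TPM is proportional to the effective transcript length that RSEM, the quantification program, averaged over the gene's annotated transcripts. Scaled in each library on genes with 1 annotated transcript, the implied length of Bcl2l11 was 3888, 4017 and 3972 bases in Abcc4-/- and 2777, 3106 and 3057 bases in WT. All 3 Abcc4-/- libraries lay above all 3 WT libraries, and the mean was 1.33 times that of WT (two-sided p = 0.1 by exact permutation, the lowest value possible with 3 against 3). The length was computed because counts and TPM were seen to differ, so this p-value is not independent support. Over 9371 genes with at least 500 counts and 1 TPM in each library, the ratio ran from 0.961 to 1.07 between the 5th and 95th percentiles, and 8 genes, Bcl2l11 among them, had a ratio at least as large. The other 9 genes described here had ratios of 0.968 to 1.04. Of these, Bcl2 (ratio 1.04) and Bcl2l1 (1.02) had the same p of 0.1 by exact permutation. GENCODE lists 8 transcripts of Bcl2l11, of 391 to 5036 bases. Those of 391, 974 and 1611 bases are labelled as processed transcripts and the others as protein-coding. The BIM proteins of the gene differ in length and potency. Values per transcript were not analysed here, so which of the transcripts differ is not known.

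**Figure D2:**
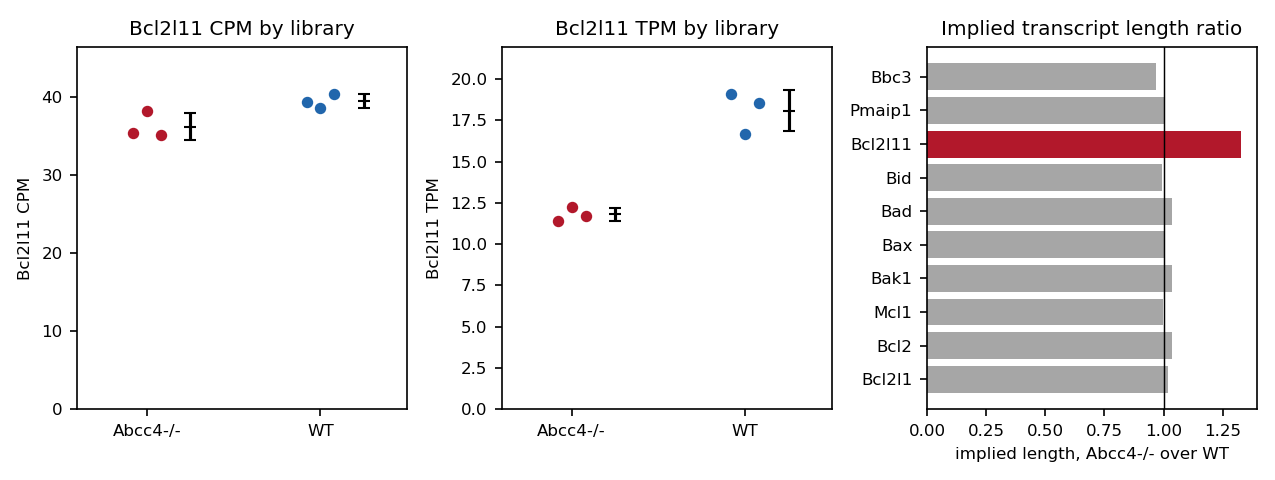
Bcl2l11 in CPM (left) and in TPM (middle) per library, Abcc4-/- in red and WT in blue with mean and SD, and the ratio of implied transcript length, Abcc4-/- over WT, for each of the 10 genes (right). The genotypes are close in CPM and apart in TPM, and Bcl2l11 has the ratio of 1.33 while the others lie near 1.

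Neither effector gene was called. Bax had 48.5, 50.2 and 49.8 CPM in Abcc4-/- and 48.5, 51.5 and 46.8 CPM in WT, with a log2 fold change of 0.02 and a 95% interval of -0.10 to 0.13 (edgeR, adjusted p = 0.863). Its deposited counts were not whole numbers, because RSEM divides reads that match several places, while those of the other 9 genes were whole. Bak1 had 115.5, 111.2 and 113.6 CPM in Abcc4-/- and 111.8, 111.9 and 100.8 CPM in WT, a log2 fold change of 0.07 (-0.05 to 0.19; edgeR, adjusted p = 0.431). In both genes the genotypes overlapped, and the intervals leave room for a difference of up to 1.10-fold for Bax and 1.14-fold for Bak1 in the upward direction.

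Among the survival genes Mcl1, whose short-lived protein is the main partner of NOXA, fell. It stood at 572, 539 and 595 CPM in Abcc4-/- and 728, 702 and 743 CPM in WT, with every Abcc4-/- library below every WT library. Mcl1 (ENSMUSG00000038612.16, chromosome 3, positions 95658788 to 95663176, plus strand) was 1.27-fold lower (log2 fold change -0.35, SE 0.06; edgeR, adjusted p = 0.002). Bcl2l1 rose. It had 48.4, 45.9 and 43.2 CPM in Abcc4-/- and 33.2, 35.5 and 36.6 CPM in WT, and the groups did not overlap. Its change was 1.31-fold (ENSMUSG00000007659.18, chromosome 2, positions 152780668 to 152831728, minus strand; log2 fold change 0.38, SE 0.06; edgeR, adjusted p = 0.0015). The gene gives rise to the survival protein BCL-XL and, by splicing, to a short form that promotes death, which gene totals do not separate.

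Bcl2 (ENSMUSG00000057329.7), the founding gene of the family, was lower by a small amount. Its level was 49.1, 49.2 and 48.9 CPM in Abcc4-/- and 52.2, 57.1 and 56.1 CPM in WT. The groups did not overlap, and the 3 Abcc4-/- values were nearly equal. Its log2 fold change was -0.17 (SE 0.05; edgeR, adjusted p = 0.043). The call was lost without any library but WT replicate 1 (edgeR, adjusted p = 0.0789 to 0.127), when the libraries were thinned to the smallest total (0.0533), without the filter on low counts (0.0589) and on centred log2(TPM + 1) (limma, 0.0863). The calls of Bbc3, Pmaip1, Mcl1 and Bcl2l1 held under each of the 17 alternatives.

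**Figure D3:**
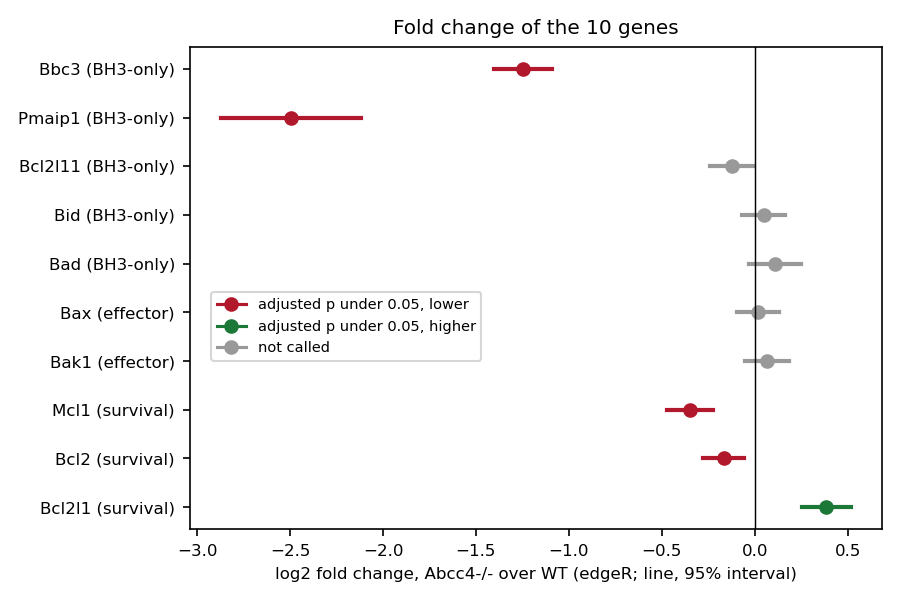
Log2 fold change, Abcc4-/- over WT, of the 10 genes with its 95% interval from edgeR, ordered by role. Pmaip1 (-2.49) and Bbc3 (-1.25) stand apart, Mcl1 and Bcl2 lie below 0, Bcl2l1 (0.38) lies above, and the effector genes span 0.

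Compared per length, Mcl1 was the most abundant of the 10 transcripts in both genotypes, at 228 ± 15.1 TPM in Abcc4-/- and 306 ± 16.5 TPM in WT (SD, n = 3 each). Bax, Bak1 and Bid followed in that order, Bax and Bak1 overlapping in both genotypes. In Abcc4-/- the order went on with Bad, Bcl2l1, Bcl2l11, Pmaip1, Bcl2 and Bbc3, of which Pmaip1 (9.29 ± 0.707 TPM) and Bcl2 (9.26 ± 0.217 TPM) could not be separated. In WT it went on with Pmaip1, Bad, Bcl2l1, Bbc3, Bcl2l11 and Bcl2, where Pmaip1 overlapped Bid and Bbc3 overlapped Bcl2l11. Pmaip1 thus stood at rank 8 in Abcc4-/- and at rank 5 in WT, and Bcl2 was the lowest of the 10 in WT.

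The makeup of the BH3-only and survival transcripts differed accordingly, given here as description. The sums, shares and ratios are in TPM, where Bcl2l11 had a mean of 11.8 in Abcc4-/- and 18.1 in WT, though little different in counts. BH3-only transcripts summed to 137 ± 1.87 TPM in Abcc4-/- and 204 ± 14.8 TPM in WT, effectors to 181 ± 5.52 TPM in Abcc4-/- and 189 ± 4.48 TPM in WT, and survival transcripts to 268 ± 14.8 TPM in Abcc4-/- and 343 ± 18.3 TPM in WT (SD, n = 3 each). The effector sums overlapped (175.4 to 186.4 TPM in Abcc4-/- and 184.5 to 193.4 TPM in WT), and Bax over Bak1 was 1.03 in both genotypes. Pmaip1 made up 6.76 ± 0.569% of the BH3-only TPM in Abcc4-/- and 27.2 ± 4.45% in WT. Bid, at a nearly equal level in TPM, was 49.6% of it in Abcc4-/- and 34.1% in WT. Bcl2l1 made up 11.5 ± 0.859% of the survival TPM in Abcc4-/- and 7.41 ± 0.302% in WT.

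Ratios within a library do not depend on its total. There were 23.0, 25.5 and 25.2 Mcl1 transcripts for each Pmaip1 transcript in Abcc4-/-, against 6.03, 6.31 and 4.55 in WT. Mcl1 over Bcl2l1 was 7.002, 7.061 and 8.181 in Abcc4-/- and 12.7, 11.6 and 11.9 in WT, with no overlap. This ratio had to separate, since every Abcc4-/- library was lower in Mcl1 TPM and higher in Bcl2l1 TPM than every WT library. Summed survival over summed BH3-only TPM was 1.95 ± 0.106 in Abcc4-/- and 1.69 ± 0.032 in WT, and once the effectors were added to the BH3-only genes it was 0.841 ± 0.0389 in Abcc4-/- and 0.874 ± 0.0231 in WT, with overlap. These are transcript ratios and not protein ratios.

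**Figure D4:**
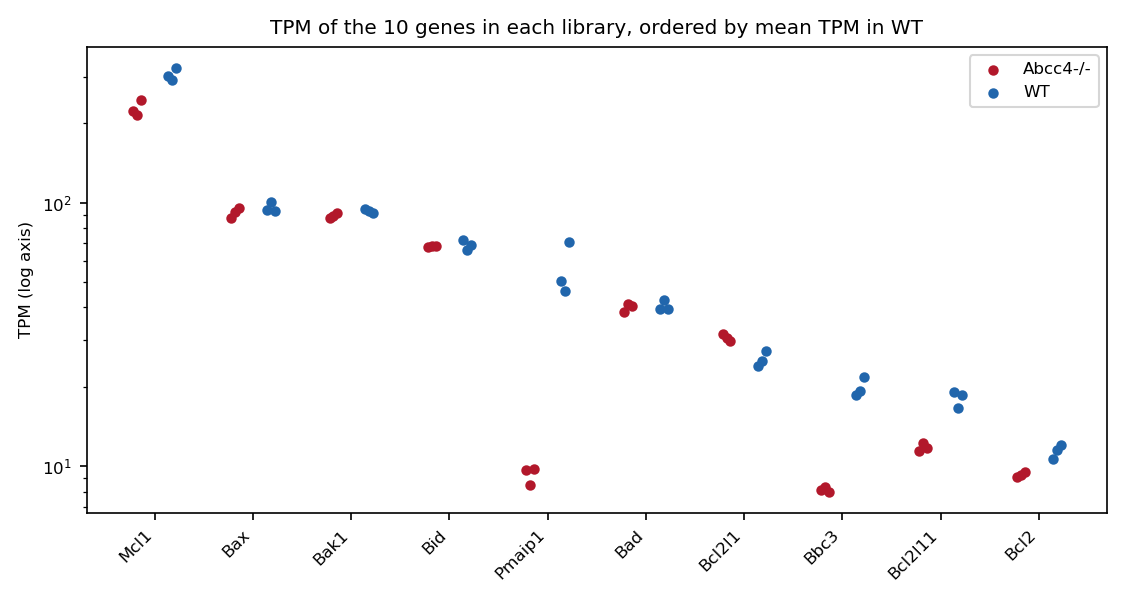
TPM of the 10 genes in each library on a log axis, Abcc4-/- (red) left of WT (blue), ordered by the WT mean. Mcl1 is highest in both genotypes, and Pmaip1 lies at 9.29 TPM on average in Abcc4-/- and at 55.9 TPM in WT.

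The rest of the family showed no call on counts. Of 15 other BCL2 family genes 13 were tested, and 0 passed in edgeR, while 17.3% of all genes tested passed. In the same edgeR test 5092 of all genes tested, Bcl2l2 and Bmf among them, had an unadjusted p below 0.05. Bcl2l10 and Hrk had 0 counts in every library, which allows up to 0.0304 to 0.0591 CPM by library. The median log2 fold change of the 13 was 0.02. Bcl2l2, the gene of the survival protein BCL-W, stood at 17.4 ± 0.0723 CPM in Abcc4-/- and 19.5 ± 0.982 CPM in WT (log2 fold change -0.16; edgeR, adjusted p = 0.0856). Bmf, a BH3-only gene bound to the cytoskeleton, was at 45.4 ± 4.19 CPM in Abcc4-/- and 40.9 ± 1.22 CPM in WT (0.15; adjusted p = 0.147). Bok, a further pore former, was scarce, at 0.671 ± 0.0463 CPM in Abcc4-/- and 0.468 ± 0.143 CPM in WT (0.52; adjusted p = 0.185), and Bik, Bcl2l14 and Bcl2l15 were at most 1.23 CPM on average in either genotype (log2 fold changes -0.41, -0.10 and 0.41; adjusted p = 0.369 to 0.729). Bnip3 and Bnip3l, mitochondrial receptors of mitophagy, had log2 fold changes of 0.02 each, Bcl2l12 had 0.11 and Bcl2l13 -0.0094 (adjusted p = 0.227 to 0.926). The near-identical Bcl2a1a, Bcl2a1b and Bcl2a1d share reads and are uncertain (0.34, 0.0050 and -0.21; adjusted p = 0.300 to 0.985). Among the 13, Bok gained a call under 1 of the 17 alternatives, centred log2(TPM + 1) (limma, adjusted p = 0.0459).

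Downstream of the mitochondria few genes passed. The median log2 fold change of 18 genes of caspases, the apoptosome and their inhibitors was 0.02. Of the 18, 1 rose and 0 fell, while 17.3% of all genes tested passed. The gene that rose was Casp9, the initiator caspase of the apoptosome, at 45.8 ± 1.46 CPM in Abcc4-/- and 40.2 ± 1.08 CPM in WT (1.14-fold; edgeR, adjusted p = 0.0266). It lost its call on each TPM scale (limma, adjusted p = 0.0714 to 0.313) and without Abcc4-/- replicate 2 or 3 or WT replicate 2 (edgeR, 0.0647 to 0.127). Aifm1, Diablo and Casp6, the next by p, were not called (log2 fold changes 0.18, 0.11 and 0.11; adjusted p = 0.0744, 0.232 and 0.277). Aifm1 was called higher under 3 of the 17 alternatives.

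In the death receptor pathway 1 of 11 genes rose and 1 fell, while 17.3% of all genes tested passed. The median log2 fold change was 0.04. Tnf, the cytokine ligand, was 1.31-fold lower, at 20.2 ± 1.04 CPM in Abcc4-/- and 26.5 ± 2.18 CPM in WT (edgeR, adjusted p = 0.0035). Fas, the receptor, was 1.201-fold higher, at 16.76 ± 0.654 CPM in Abcc4-/- and 13.96 ± 1.283 CPM in WT (adjusted p = 0.0301). Its call was lost without any library but WT replicate 1 (edgeR, 0.0581 to 0.0975) and on each TPM scale (limma, 0.0557 to 0.227). Cflar and Fadd were not called (log2 fold changes -0.16 and 0.15; edgeR, adjusted p = 0.0675 and 0.142). Cflar was called lower under 1 of the 17 alternatives, the replicate block.

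Of transcription factors known to act on these genes, 14 of 15 were tested, and the median log2 fold change was -0.07. Of the 14, 2 fell and 0 rose, while 17.3% of all genes tested passed. Both that fell belong to the integrated stress response, which is known to induce Pmaip1, Bbc3 and Bcl2l11. Their part in the values of those genes was not tested. Atf4 stood at 222 ± 15.7 CPM in Abcc4-/- and 368 ± 11.9 CPM in WT, 1.66-fold lower (edgeR, adjusted p = 2e-05). Ddit3, the gene of CHOP, stood at 11.5 ± 0.332 CPM in Abcc4-/- and 24.0 ± 3.61 CPM in WT, 2.09-fold lower (adjusted p = 7.5e-05). Myc and Rela were not called (log2 fold changes -0.24 and -0.13; edgeR, adjusted p = 0.0541 and 0.112). Under 7 of the 17 alternatives Myc was called lower. Trp53, the gene of p53, named after its values were seen, stood at 118 ± 1.48 CPM in Abcc4-/- and 115 ± 2.39 CPM in WT (edgeR, adjusted p = 0.658). The table gives a pair of identifiers for Ddit3, and the one with more counts was used.

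Among 18 tested of 19 genes whose proteins modify or bind those of the family, the median log2 fold change was 0.04. Of the 18, 1 fell and 1 rose, while 17.3% of all genes tested passed. The gene that fell and the gene that rose encode a pair of kinases known to phosphorylate BAD. Pim1 stood at 196, 164 and 203 CPM in Abcc4-/- and 473, 439 and 486 CPM in WT, 2.49-fold lower (edgeR, adjusted p = 5.5e-06). Pim2 stood at 20.9, 19.9 and 19.4 CPM in Abcc4-/- and 13.4, 15.8 and 13.8 CPM in WT, 1.40-fold higher (adjusted p = 0.0011). Neither pair of groups overlapped. Btrc and Mapk3 were not called (log2 fold changes 0.20 and 0.16; edgeR, adjusted p = 0.0549 and 0.0762). Each was called higher under 2 of the 17 alternatives.

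Immediate early genes moved in the same libraries. In a list of 20, 19 fell and 0 rose in edgeR at an adjusted p of 0.05, while 17.3% of all genes tested passed. The median log2 fold change of the 20 was -1.45. Together they summed to 4327 to 5052 CPM in Abcc4-/- and 12291 to 12992 CPM in WT. Nr4a2, Ier2, Btg2 and Ier5 had the smallest p, with log2 fold changes of -2.71, -1.12, -1.12 and -0.84 (edgeR, adjusted p = 7.7e-07 to 3.2e-06). This list was written with its fall already known. Its part in the values of Pmaip1, Bbc3 and Mcl1 was not tested.

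For 1 gene of each role, that with the smallest p, the genes most like it were found by the root mean square difference between their centred log2 CPM over the 6 libraries, among 10758 candidates. Nearest to Bbc3 were Arl4c, Hist1h1e and Dyrk3, at distances of 0.0955, 0.1001 and 0.1045 on the log2 scale, against a median of 0.63 over all candidates. Apmap, Abcf2 and Tpi1 were nearest to Bak1 (0.0072, 0.010 and 0.012, median 0.11). Polh, Zfp429 and Plekha2 were nearest to Bcl2l1 (0.036, 0.038 and 0.039, median 0.21). The log2 fold changes of these genes, in the same order, were -1.22, -1.10 and -1.12 near Bbc3. They were 0.06, 0.08 and 0.06 near Bak1 (not called), and 0.40, 0.38 and 0.43 near Bcl2l1. The nearest of so many candidates are close by the way they were chosen, and no test was made.

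**Figure D5:**
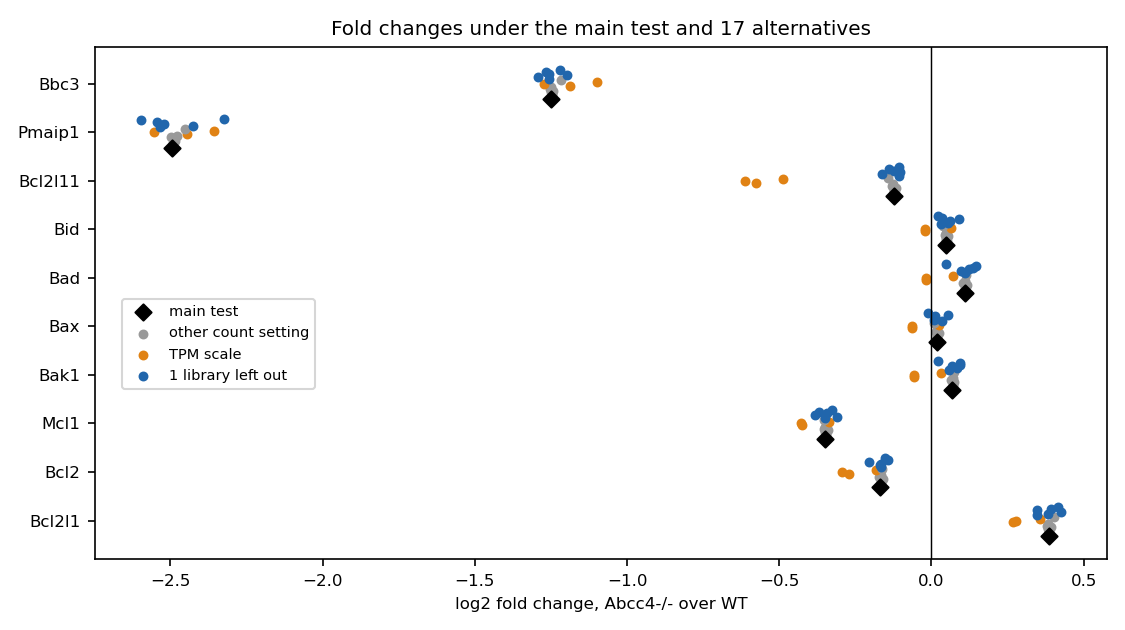
Log2 fold change, Abcc4-/- over WT, of each of the 10 genes in the main test (black diamonds) and under 17 alternatives (points, coloured by kind). Bcl2l11 is near -0.12 in the count settings and between -0.61 and -0.49 on the TPM scales. Bid, Bad, Bax and Bak1, near 0, lie below 0 on the uncentred TPM scales and above 0 on the centred one.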

How the data were processed

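A stranded mRNA kit and paired reads were used, per the labels' protocols. The submitters' processing notes name STAR 2.7, RSEM 1.3.1 and mm10. Which annotation release was used is not stated there. Per gene, the authors deposited expected counts, not normalized, and TPM, scaled by length within each sample. The expected counts were rounded. After TMM normalization and the default filter, 16493 genes entered edgeR 4.0.16 (R 4.3.3) in a robust quasi-likelihood fit by genotype, with Benjamini-Hochberg adjustment over all genes tested and a threshold of 0.05. The 92 spike-in entries, at 0 counts, were left out. SE came from the fold change and its statistic, and 95% intervals from the t distribution with the fitted degrees of freedom. The floor of 3 counts covers counting error only. The procedure was tested on simulated data.

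The genes and lists were chosen with earlier results of these data known. The text names the 10 genes, the other family members tested, the 4 genes of each other list with the smallest adjusted p, and the nearest genes (mean log2 CPM at least 1, no sex-linked genes or unnamed models). The implied length was added after the TPM values were seen. Alternatives were other normalizations, DESeq2 1.42.0, limma-voom (limma 3.58.1), other filters, a replicate block, log2 TPM with a pseudocount of 1 or 0.1 (a scale that shrinks the changes of low genes), thinning to the smallest total, and each library left out. Positions and transcript lengths came from GENCODE on GRCm38, the assembly that mm10 names.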

Additional observations from a re-analysis of the deposited data

How the results depend on the processing

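Of 170 values of the 10 genes under 17 alternatives, 150 kept their direction and their side of the threshold, 8 lost a call (all Bcl2), 3 gained one (Bcl2l11 on each TPM scale) and 9 changed sign without a call. The number of the 10 genes called ranged from 4 to 6. The count over all genes was 2852, and between 1760 (without Abcc4-/- replicate 2) and 2415 with 1 library left out; without Abcc4-/- replicate 1 it was 1821. Called genes were 49.8% higher on counts, 28.4% on log2(TPM + 1) and 27.9% on log2(TPM + 0.1).

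Values near 0 changed sign, none of them called, and the cause was not tested. On log2(TPM + 1) and log2(TPM + 0.1) the log2 fold changes were -0.0225 and -0.0228 for Bid, -0.0173 and -0.0177 for Bad, -0.0628 and -0.0634 for Bax, -0.0573 and -0.0579 for Bak1, -0.0314 and -0.0330 for Bmf, -0.0368 and -0.0371 for Bnip3l, -0.0771 and -0.0802 for Bnip3, -0.0668 and -0.0758 for Bcl2a1b, and -0.0207 and -0.0207 for Tpi1. On log2(TPM + 1) with each library centred on its median, Bid (0.0656), Bad (0.0708), Bax (0.0253) and Bak1 (0.0308) were above 0, as on counts. With 1 library left out in turn, Bax lay between -0.0114 and 0.0556, Bcl2l13 between -0.0442 and 0.0102, and Bcl2a1b between -0.105 and 0.0944. Bcl2a1b was at -0.0120 with limma-voom, -0.0012 with the replicate block and -0.0358 after thinning.

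Same-numbered samples did not deviate together (correlations -0.0464, -0.0261 and -0.0145 across genes). Differently numbered samples had correlations of -0.0598 to 0.0845. With 3 samples a genotype this check cannot exclude that the numbers pair the samples. With the replicate number as a block 3157 genes and the same number of the 10, 5, were called. The 3 samples a genotype limit the precision, and an uncalled gene may still differ.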
